A study of Homo sapiens with 6 samples.

Results

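Glucose enters a cell through membrane transporters, is split to pyruvate by the enzymes of glycolysis, and leaves largely as lactate when pyruvate is reduced. The pentose phosphate pathway branches off early and yields reducing power and ribose, and its sugars return to glycolysis through transketolase and transaldolase. Oncogenic Ras is known to raise glucose uptake and glycolysis, and fibroblasts in Ras-induced senescence stop dividing while staying metabolically active. Here 35 genes of these steps were followed, chosen by symbol from the 57819 genes of the deposited table: glucose transporters, glycolytic enzymes and their regulators, lactate enzymes and transporters, pentose phosphate enzymes and the mitochondrial glycerol phosphate dehydrogenase GPD2. All 35 were found and all 35 passed the filter on low values.

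The libraries came from IMR90 ER:Ras cells, human lung fibroblasts in which Ras is joined to a hormone-binding domain and becomes active once 4-hydroxytamoxifen (4OHT) is added. All 6 libraries were from cells given 200 nM 4OHT for 3 days, so both groups carried active Ras. The control group received the scrambled siRNA siSCR (n = 3) and the other group siRNA that targets sin-lncRNA, a long noncoding RNA (sin-lncRNA KD, n = 3). The comparison asks what depletion of this lncRNA changes in Ras-activated cells. Each group received siRNA under a single label. The knockdown columns carry a longer siRNA name than the sample descriptions, so whether that was a single siRNA or a mix is not settled. No library without 4OHT was analysed here, and whether replicates were separate cultures is not stated. The p-values therefore measure the spread between these libraries, which may be technical.

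Levels are given as RPM, reads per 1000000 of the effective library size, recovered from the deposited log2 values. Reads in genes ran from 30271192 to 50913672 in controls and from 22117324 to 27882280 in knockdowns, so every knockdown library was shallower. The target fell from 3.70, 4.73 and 4.09 RPM in the controls to 0.493, 0.640 and 0.534 in the knockdowns (log2 fold change -2.86, SE 0.18; limma, Benjamini-Hochberg adjusted p = 7.9e-07). Of 10 fibroblast markers 5 fell and 4 rose, and their summed level ran from 39002 to 40842 RPM in controls and 38645 to 40200 in knockdowns. That sum hides opposite changes. FN1, its largest part, rose from 25152 ± 1400 to 29811 ± 975 RPM (SD, n = 3). COL1A1 and COL1A2 were among those that fell (log2 fold changes -0.88 and -0.77). The 5 leukocyte markers summed to at most 0.570 RPM in any library, with MS4A1 at 0 in all. The 4 endothelial markers summed to 6.99 to 7.90 RPM in controls and 7.91 to 8.84 in knockdowns, with CDH5 at 0 in all but 1 library, and the 6 epithelial markers to 28.0 to 31.3 and 28.6 to 31.4 RPM, with KRT5 at 0 in all. Among epithelial markers KRT19 and KRT8 fell (log2 fold changes -1.31 and -0.38) and KRT18 rose (0.35). VWF was the endothelial marker that rose (0.42). The 4 smooth muscle markers, of which CNN1 and ACTG2 fell, summed to 134 to 143 RPM in knockdowns and 230 to 242 in controls. The part of these markers in the results was not tested.

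Promoters of members are shown first because most members changed in the same direction. RefSeq start sites in GRCh38.p14 gave a window of 300 bases, from 250 before to 50 after the start, for 32 of the 35 genes. SLC2A3, PFKFB2 and SLC16A1 had no entry in the table used. The letters ACGTG, the core of the hypoxia response element and part of the E-box CACGTG that MYC and MLX family factors bind, were searched on both strands; each CACGTG holds ACGTG on both strands and counts as 2 matches. The windows of HK2 (chr2:74833877-74834176, plus strand) and LDHA (chr11:18394313-18394612, plus strand) hold matches, and those of PFKFB4 (chr3:48556754-48557053, minus strand) and PFKFB3 (chr10:6144671-6144970, plus strand) hold none. They are printed 5′ to 3′ on the gene's strand with the matches in capitals, for a hexokinase and a lactate dehydrogenase gene among those that fell and for a pair of related regulators that moved in opposite directions.
HK2: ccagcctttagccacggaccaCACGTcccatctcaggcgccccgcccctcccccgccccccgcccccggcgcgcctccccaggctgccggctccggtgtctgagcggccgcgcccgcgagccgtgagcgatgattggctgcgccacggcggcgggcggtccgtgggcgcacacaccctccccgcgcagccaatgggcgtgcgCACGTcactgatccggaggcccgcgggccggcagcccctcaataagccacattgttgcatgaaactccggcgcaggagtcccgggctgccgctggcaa
LDHA: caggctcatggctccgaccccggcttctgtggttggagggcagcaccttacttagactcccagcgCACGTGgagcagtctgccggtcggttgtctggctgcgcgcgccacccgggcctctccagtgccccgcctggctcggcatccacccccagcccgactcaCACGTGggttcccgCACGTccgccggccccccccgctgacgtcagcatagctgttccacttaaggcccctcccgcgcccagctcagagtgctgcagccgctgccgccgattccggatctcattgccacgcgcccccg
PFKFB4: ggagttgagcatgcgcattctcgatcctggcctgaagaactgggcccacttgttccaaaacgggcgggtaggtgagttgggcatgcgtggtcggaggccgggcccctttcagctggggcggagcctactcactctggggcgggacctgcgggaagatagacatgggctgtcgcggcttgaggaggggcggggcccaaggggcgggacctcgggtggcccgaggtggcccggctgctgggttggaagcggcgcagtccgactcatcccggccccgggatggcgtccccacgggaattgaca
PFKFB3: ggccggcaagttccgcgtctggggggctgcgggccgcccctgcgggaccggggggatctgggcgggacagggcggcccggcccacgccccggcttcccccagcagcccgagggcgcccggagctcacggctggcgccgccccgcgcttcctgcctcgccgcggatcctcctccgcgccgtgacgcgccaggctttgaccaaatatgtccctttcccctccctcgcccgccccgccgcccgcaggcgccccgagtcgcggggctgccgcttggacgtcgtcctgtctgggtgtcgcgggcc
The HK2 window has 2 matches and the LDHA window 5, of which 4 come from 2 copies of the E-box. The shorter ACGTG was found in 10 of 32 member windows (31.3%), against 21.6% of 27305 RefSeq windows of that length and 26.6% of the 10048 windows of genes tested. Of those 10 genes, 9 fell in the knockdown and 1 did not pass the test; of the 22 windows without a match, 15 belonged to genes that fell, 2 to genes that rose and 5 to genes that did not pass. CACGTG was found in 3 of 32 windows (9.38%; 7.43% of all and 9.92% of those of genes tested), those of LDHA, GAPDH and ALDOC. The GC box GGGCGG was found in 25 of 32 (78.1%), against 44.6% of all windows and 69.4% of those of genes tested. A match describes letters in this window and is not a binding site shown by these data.

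Transcripts of glucose breakdown were lower in the knockdown at nearly every step. Of the 35 members, 25 were lower and 3 higher at an adjusted p under 0.05, and 7 did not pass (limma, two-sided, Benjamini-Hochberg over 19048 genes). Over all genes tested, 41.0% were called, 23.5% lower and 17.5% higher. The median log2 fold change of the members was -0.25, against -0.04 for all genes tested. In each library, the median deviation of the members from the control mean was -0.02, 0.02 and 0.02 (log2) in controls and -0.30, -0.27 and -0.26 in knockdowns. Called members had a median absolute log2 fold change of 0.30, and all called genes one of 0.39. Among the members, PFKFB4, HK2 and TKT alone were called and moved by 0.5 or more in log2 (13.9% of all genes tested did). The groups did not overlap in 28 of the 35 members (51.1% of all genes tested). Members are abundant genes, and such genes were called more often. Among the 4262 genes with a mean of at least 50 RPM, a level chosen after the values were seen, 58.8% were called and 33.8% were lower; of the 28 members at that level, 23 were lower and 2 higher. In bulk RNA, fewer cells of a type and less RNA per cell cannot be told apart.

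**Figure D1:**
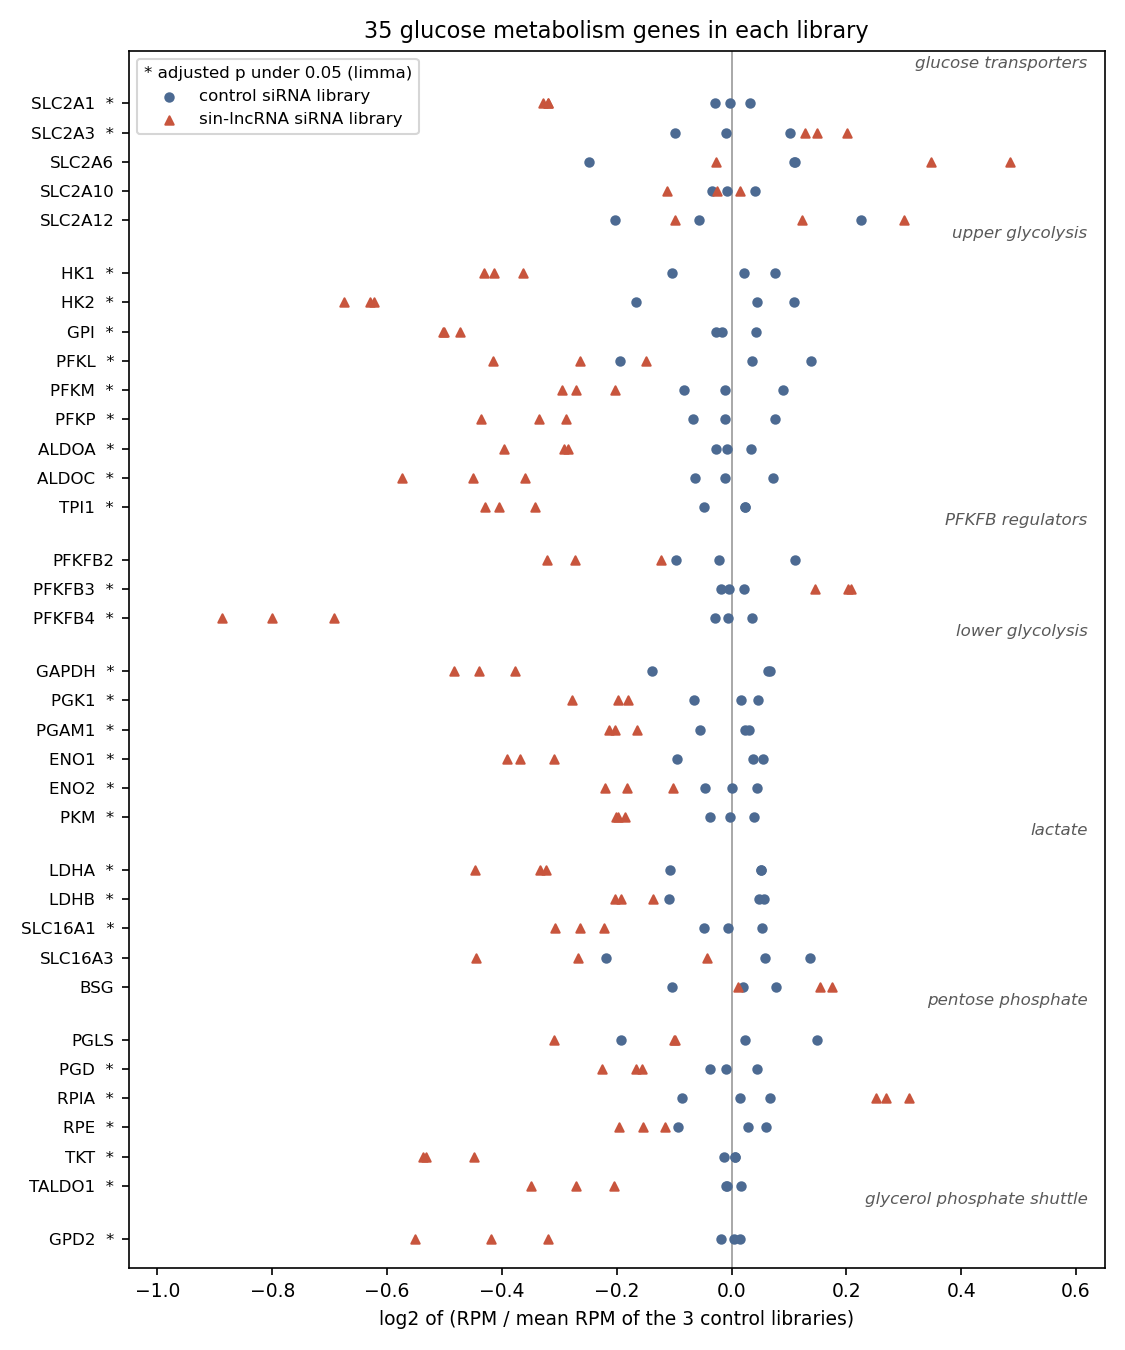
Level of each of the 35 genes in every library, as log2 of RPM over the mean RPM of the 3 control libraries (x axis); circles are control libraries, triangles are sin-lncRNA siRNA libraries, and rows follow the pathway. In 28 rows the triangles and circles do not overlap, with PFKFB4 farthest to the left; RPIA, PFKFB3 and SLC2A3 are the called genes on the right, and asterisks mark called genes.

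Of 5 glucose transporter members, 1 fell, 1 rose and 3 did not pass. Those counts are near the shares over all genes tested, 23.5% lower and 17.5% higher. SLC2A1 encodes GLUT1, the transporter of basal glucose uptake in most cells (ENSG00000117394.15, chromosome 1, 43391052 to 43424530 in hg19 coordinates). It measured 96.9, 94.5 and 92.8 RPM in controls and 75.4, 75.9 and 75.9 in knockdowns. Every knockdown library lay below every control library (log2 fold change -0.32, SE 0.04; limma adjusted p = 0.00015). SLC2A3, which encodes the high-affinity transporter GLUT3, measured 166.3, 191.1 and 176.9 RPM in controls and 194.5, 197.4 and 204.7 in knockdowns. It rose by 0.16 (log2; SE 0.05; limma adjusted p = 0.032), and the call was lost in 6 of 19 other fits, among them those without control replicate 1 (log2 fold change 0.11; adjusted p = 0.094) or knockdown replicate 3 (0.14; 0.119). SLC2A10 was level, at 74.7 ± 2.0 and 72.6 ± 3.2 RPM (SD, n = 3). SLC2A6 had 17.1 ± 2.4 and 20.9 ± 3.7 RPM with overlapping groups (limma adjusted p = 0.114), and passed the test without knockdown replicate 1 (log2 fold change 0.43; adjusted p = 0.015) and with a correction for GC content and length (0.45; 0.00017). With no filter on low values SLC2A6 also passed (limma adjusted p = 0.0033). SLC2A12 had 3.57 ± 0.55 RPM in controls and 3.87 ± 0.53 in knockdowns. Per mRNA length it was the least abundant member in controls, within the spread of PFKFB2, which was the lowest in knockdowns. Summed over the 5 transporters, levels were 363, 376 and 366 RPM in controls and 367, 370 and 380 in knockdowns, which overlap.

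All 9 upper glycolysis members fell, from hexokinase to triosephosphate isomerase, beside 23.5% of all genes tested. Hexokinases trap glucose in the cell by phosphorylating it. HK2, the inducible form (ENSG00000159399.5, chromosome 2, 75061108 to 75120486), measured 71.5, 86.6 and 82.8 RPM in controls and 51.9, 50.3 and 52.2 in knockdowns. The knockdown libraries were tight and 35.9% lower on average (log2 fold change -0.64, SE 0.07; limma adjusted p = 3.2e-05). HK1, the widely expressed form, measured 197, 223 and 215 RPM in controls and 159, 157 and 165 in knockdowns, a log2 fold change of -0.40 (SE 0.05). GPI, which turns the product into fructose phosphate, measured 244, 254.5 and 242 RPM in controls and 178, 175 and 174 in knockdowns, with no overlap (log2 fold change -0.49, SE 0.04; limma adjusted p = 5.2e-06).

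Phosphofructokinase commits the sugar to glycolysis, and all 3 of its genes fell. The log2 fold changes were -0.35 for PFKP, -0.27 for PFKL and -0.25 for PFKM. The GC and length correction takes each library's deviations from the gene means and subtracts their trend over transcript GC content, then over length. With it, the log2 fold changes were -0.23 for PFKP and -0.14 for PFKL, both still called. PFKP went from 175.5 ± 8.9 to 137.6 ± 7.2 RPM and PFKM from 104.6 ± 6.3 to 87.6 ± 2.9 (SD, n = 3). For PFKL the groups overlapped, with 147, 117 and 137 RPM in controls and 100.2, 121 and 111 in knockdowns. Its call (limma adjusted p = 0.027) was lost in 7 of 19 other fits, including those without control replicate 1 (log2 fold change -0.20; adjusted p = 0.092), control replicate 3 (-0.25; 0.091), knockdown replicate 1 (-0.20; 0.101) or knockdown replicate 3 (-0.28; 0.072). Aldolase and triosephosphate isomerase make and interconvert the triose phosphates. ALDOA went from 1117 ± 24 to 892 ± 38 RPM (log2 fold change -0.32), the minor form ALDOC from 18.9 ± 0.9 to 13.8 ± 1.0 (-0.46), and TPI1 from 522 ± 15 to 398 ± 12 (-0.39; limma adjusted p = 3.5e-05). The TPI1 value was -0.24 with that correction, and its call held. Summed over the 9 genes, levels were 2601, 2605 and 2626 RPM in controls and 1967, 2040 and 2075 in knockdowns.

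The PFKFB enzymes make and break down the sugar phosphate that activates phosphofructokinase, and these genes split. PFKFB4 (ENSG00000114268.7, chromosome 3, 48555117 to 48599448) had the largest absolute log2 fold change of the 35 members. It measured 20.3, 19.98 and 20.9 RPM in controls and 11.7, 11.0 and 12.6 in knockdowns, on 258 to 1051 reads. This was 57.8% of control (log2 fold change -0.79, SE 0.07; limma adjusted p = 1.1e-05). PFKFB3, the form with the highest kinase activity (ENSG00000170525.14, chromosome 10, 6186881 to 6277495), went the other way, from 111.0, 109.1 and 108.0 RPM to 121.0, 126.4 and 125.9 (log2 fold change 0.19, SE 0.04; limma adjusted p = 0.0045). Both calls held in all 19 other fits. PFKFB2 had 6.23 ± 0.46 RPM in controls and 5.29 ± 0.38 in knockdowns, without overlap between the groups, and did not pass (limma adjusted p = 0.0900); its adjusted p was 0.030 with the GC and length correction.

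All 6 lower glycolysis members fell, by 0.17 to 0.43 on the log2 scale, beside 23.5% of all genes tested that were lower. GAPDH, which oxidizes the triose phosphate, measured 1411, 1627 and 1624 RPM in controls and 1112, 1146 and 1197 in knockdowns (log2 fold change -0.43, SE 0.06; limma adjusted p = 0.00019). ENO1, the main enolase, followed at 1294, 1436 and 1418 RPM against 1055, 1071 and 1116 (log2 fold change -0.35). Control replicate 1 was the lowest control for both genes and still lay above every knockdown library. PKM, the pyruvate kinase gene, was the most abundant member per length and went from 2705 ± 72 to 2362 ± 14 RPM (log2 fold change -0.19; SD, n = 3); the table gives a gene total, so its splice forms were not told apart. PGK1 (log2 fold change -0.22), which makes ATP from the product of GAPDH, and PGAM1 (-0.19), the mutase, moved by similar amounts. The minor enolase ENO2 changed least of these, from 83.9 ± 2.6 to 74.7 ± 3.1 RPM (log2 fold change -0.17; limma adjusted p = 0.018). The ENO2 call was lost without control replicate 2 (limma adjusted p = 0.059), control replicate 3 (0.065) or knockdown replicate 3 (0.081), and with the GC and length correction (log2 fold change -0.07; adjusted p = 0.230). PGAM1 also lost its call after that correction (-0.09; limma adjusted p = 0.0700). GAPDH and PKM kept their calls with it, at log2 fold changes of -0.26 and -0.12. Summed levels of the 6 genes were 6104, 6631 and 6532 RPM in controls and 5199, 5245 and 5374 in knockdowns.

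Processed pseudogenes share sequence with several of these genes, so their levels are uncertain. The table lists 118 pseudogenes named for 15 of the members. Reads in 65 rows named as GAPDH pseudogenes, of which 45 had any reads, came to 117 to 132% of the reads of GAPDH itself in controls and 122 to 134% in knockdowns. For TPI1 the share was 56.6 to 61.7% over all libraries, and for LDHA 25.3 to 27.6%. Adding these reads to their genes moved no member's log2 fold change by more than 0.038. With them, GAPDH had a log2 fold change of -0.39 (limma adjusted p = 7.6e-05), TPI1 -0.42 and LDHA -0.38. The direction of these genes was thus the same with either way of counting, while the level of GAPDH per gene was not.

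**Figure D2:**
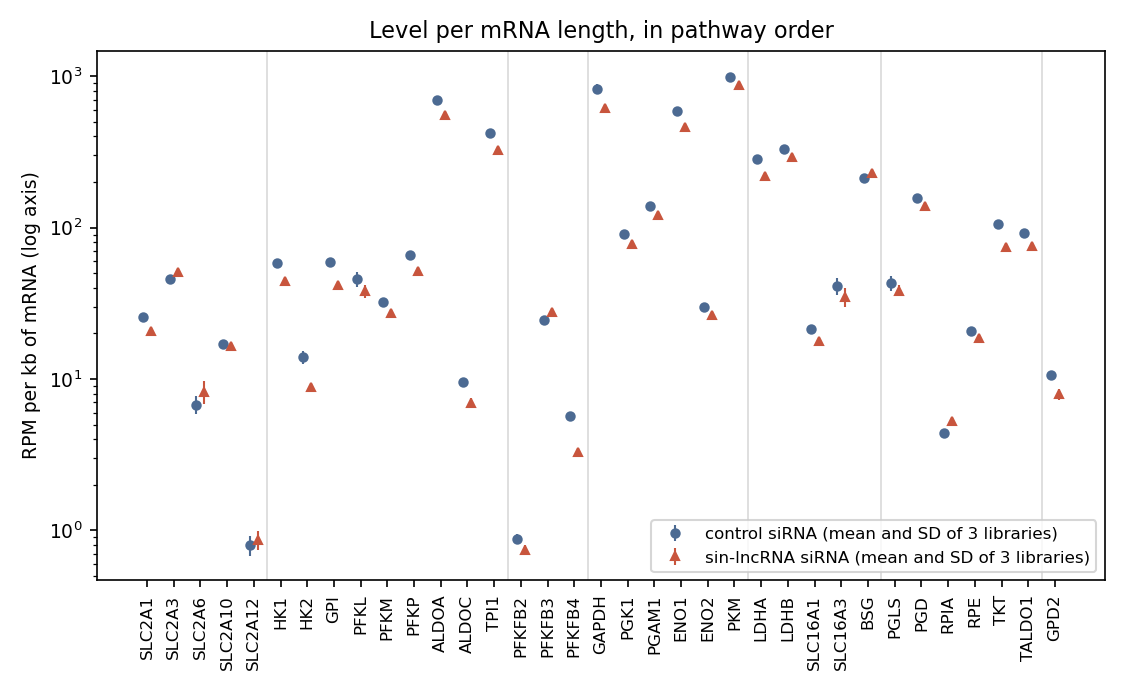
Mean RPM per kb of mRNA (y axis, log scale) of the 35 genes in pathway order, with SD over 3 libraries, for control (circles) and sin-lncRNA siRNA (triangles) libraries. PKM, GAPDH, ALDOA, ENO1 and TPI1 are the 5 highest in both groups; vertical lines separate the steps.

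Lactate dehydrogenase converts pyruvate to lactate and back, and its genes both fell. LDHA, whose product favours lactate formation (ENSG00000134333.9, chromosome 11, 18415935 to 18429972), measured 637, 711 and 711 RPM in controls and 544, 503 and 549 in knockdowns (log2 fold change -0.37, SE 0.05; limma adjusted p = 0.00032). LDHB moved less, from 473, 527 and 530 RPM to 446, 443 and 464 (log2 fold change -0.18, SE 0.05; limma adjusted p = 0.016). The LDHB call was lost without control replicate 3 (log2 fold change -0.15; limma adjusted p = 0.086) or knockdown replicate 2 (-0.16; 0.056), and with quantile normalization (-0.10; 0.104). It held with the GC and length correction, at a log2 fold change of -0.10. Monocarboxylate transporters carry lactate across the membrane together with their chaperone basigin. SLC16A1 fell from 93.8 ± 3.3 to 78.1 ± 2.3 RPM (log2 fold change -0.26). SLC16A3, the transporter typical of lactate export, had 219, 171 and 208 RPM in controls and 146, 194 and 166 in knockdowns, and did not pass (limma adjusted p = 0.082). It passed without control replicate 2 (log2 fold change -0.35; limma adjusted p = 0.0060) or knockdown replicate 2 (-0.35; 0.019). With all libraries and no filter on low values, SLC16A3 also passed (log2 fold change -0.24, limma adjusted p = 6.6e-05). BSG, the basigin gene, had 421 ± 27 and 456 ± 28 RPM and did not pass (limma adjusted p = 0.134); it passed with the GC and length correction (log2 fold change 0.30; adjusted p = 7.5e-06) and without knockdown replicate 1 (0.17; 0.039). With quantile normalization BSG also passed (log2 fold change 0.17, limma adjusted p = 0.035).

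In the pentose phosphate pathway, 4 of 6 members fell, 1 rose and 1 did not pass, beside 23.5% lower and 17.5% higher over all genes tested. TKT encodes transketolase, which links the pathway back to glycolysis (ENSG00000163931.11, chromosome 3, 53258723 to 53290068). It measured 316, 320.1 and 320.3 RPM in controls and 220, 220 and 234 in knockdowns. The controls were nearly equal and all knockdown libraries lay far below them, at 70.4% of control (log2 fold change -0.51, SE 0.04; limma adjusted p = 5.0e-06). TALDO1, transaldolase, went from 123.3 ± 1.2 to 102.0 ± 5.1 RPM (log2 fold change -0.27), and PGD, the second oxidative enzyme of the pathway, from 295.9 ± 8.6 to 260.7 ± 6.8 (-0.18). With the GC and length correction the TALDO1 value was -0.11 (limma adjusted p = 0.030) and PGD lost its call (log2 fold change -0.08; adjusted p = 0.116).

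RPIA, the ribose phosphate isomerase, was the pentose phosphate member that rose. It measured 7.64, 8.19 and 8.48 RPM in controls and 10.0, 9.65 and 9.76 in knockdowns (log2 fold change 0.28, SE 0.08; limma adjusted p = 0.017), on 224 to 427 reads. The epimerase gene RPE went from 53.7 ± 3.0 to 48.2 ± 1.4 RPM (log2 fold change -0.15; limma adjusted p = 0.045), a call lost in 12 of 19 other fits, with library totals (adjusted p = 0.067) and thinning (0.125) among them. With the GC and length correction RPE was called at a log2 fold change of -0.24. RPE also lost its call without control replicate 2 (limma adjusted p = 0.110), control replicate 3 (0.186) or knockdown replicates 1 (0.082), 2 (0.129) or 3 (0.068). PGLS, the lactonase, had 44.2 ± 5.2 and 39.4 ± 3.2 RPM and did not pass (limma adjusted p = 0.164). Without control replicate 2 PGLS passed (log2 fold change -0.26; limma adjusted p = 0.017), and with the GC and length correction its sign changed (0.04; 0.495). GPD2, the mitochondrial enzyme of the glycerol phosphate shuttle that carries electrons from cytosolic NADH to the respiratory chain, measured 63.4, 65.0 and 64.5 RPM in controls and 51.5, 43.8 and 48.1 in knockdowns (log2 fold change -0.43, SE 0.06; limma adjusted p = 0.00024).

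Paired isoenzyme genes were compared within libraries, where scaling cancels. Levels were divided by the length of the principal mRNA in GENCODE 29. In controls HK1 made up 80.9% ± 0.6 of hexokinase transcripts per length over HK1 and HK2, and 83.3% ± 0.2 in knockdowns (SD, n = 3). ALDOA made up 98.6% of aldolase and ENO1 95.2% of enolase in controls. Among phosphofructokinases PFKP led at 45.8% ± 1.1, ahead of PFKL at 31.7% ± 2.7 and PFKM at 22.5% ± 2.2, and in knockdowns the shares were 44.3%, 32.5% and 23.3%. The shares depend on the length used: with exon unions the controls had 71.8% HK1, and 55.3% PFKP, 22.8% PFKL and 21.8% PFKM. LDHA was the smaller part of lactate dehydrogenase, 46.1% ± 0.1 in controls and 42.9% ± 0.9 in knockdowns.

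Of 9 pairs compared, 5 had ratios that did not overlap between the groups. That share is near the 51.1% of all genes tested whose single levels did not overlap. The ratio of PFKFB3 to PFKFB4 shifted most, from 4.37, 4.36 and 4.14 in controls to 8.26, 9.16 and 7.98 in knockdowns, a log2 difference of 0.98. The ratio of SLC2A1 to SLC2A3 went from 0.621, 0.527 and 0.560 to 0.414, 0.410 and 0.395 (log2 difference -0.48). Smaller shifts were those of HK2 over HK1 (log2 difference -0.24), LDHA over LDHB (-0.19) and ENO1 over ENO2 (-0.19). Each of these 5 had p = 0.1 in the two-sided exact permutation test, the smallest that 3 libraries against 3 allow, and 0.18 after adjustment over the 9 pairs, so none could pass the threshold. Groups overlapped for ALDOA over ALDOC (log2 difference 0.13; exact permutation p = 0.3), PFKP over PFKL (-0.08; 0.4), PFKM over PFKL (0.02; 0.9) and SLC16A3 over SLC16A1 (0.02; 0.9).

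**Figure D3:**
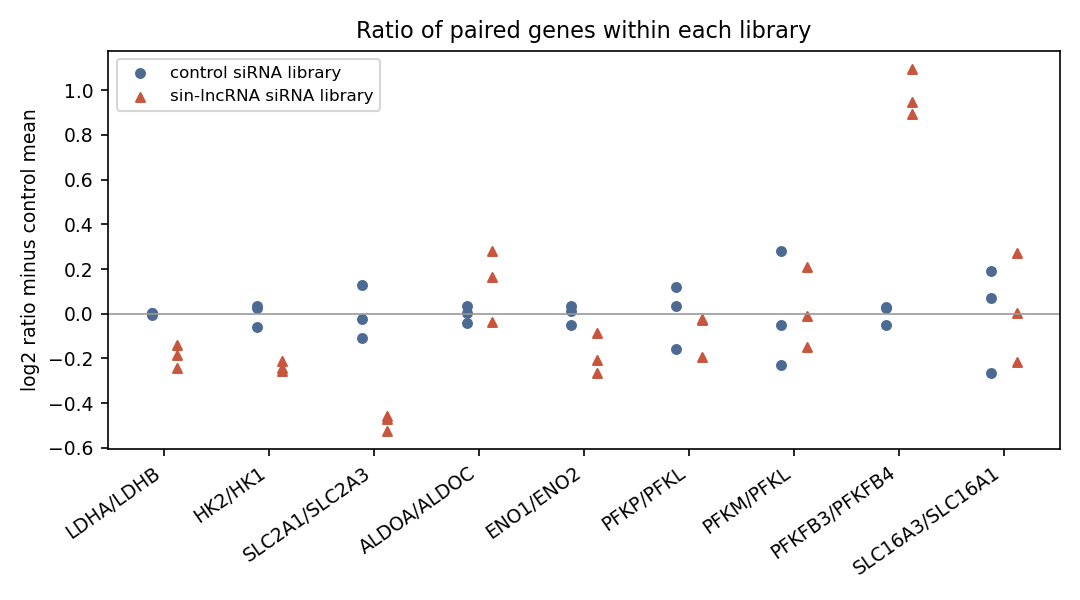
Log2 ratio of 9 gene pairs within each library minus the control mean of that pair (y axis); circles are control libraries and triangles sin-lncRNA siRNA libraries. PFKFB3 over PFKFB4 lies 0.98 above the control mean on average and SLC2A1 over SLC2A3 0.48 below, while the ALDOA, PFKP, PFKM and SLC16A3 pairs overlap.

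Ordered by level per mRNA length in controls, the members ran from PKM (995 RPM per kb), GAPDH (829), ALDOA (697), ENO1 (590) and TPI1 (424) down to PFKFB2 (0.878) and SLC2A12 (0.798). The order of the first 6, which LDHB (332) completes, was the same in knockdowns. GPI (58.9 ± 1.6) and HK1 (58.7 ± 3.7) did not differ beyond their spread, nor did PFKL (45.9 ± 5.3) and SLC2A3 (45.5 ± 3.2), or TALDO1 (91.6 ± 0.9) and PGK1 (90.9 ± 3.6; SD, n = 3). With exon unions in place of principal mRNAs, GAPDH ranked above PKM and SLC2A12 above PFKFB2, so the order of these genes depends on the length used. Pseudogene reads were not added to these levels, and with them the order could differ. TKT stood at rank 11 in controls and 13 in knockdowns, and SLC2A3 at 18 and 15.

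Other genes of glucose use were counted from a list of 39 enzymes, isoforms and branch enzymes outside the members. Of these, 24 passed the filter, 8 fell and 3 rose, with a median log2 fold change of -0.17. That is 11 of 24 called, near the 41.0% of all genes tested. The other 15 had at most 16 reads in any library, among them the tissue-specific forms SLC2A4 and PKLR. PGP, a phosphatase that clears side products of glycolysis, went from 27.1 ± 3.5 to 17.1 ± 1.7 RPM (log2 fold change -0.66; limma adjusted p = 0.00040; SD, n = 3). Of the 4 phosphoglucomutase family genes listed, PGM2 fell (log2 fold change -0.41; limma adjusted p = 0.0017), PGM2L1 and PGM1 rose (0.40 and 0.30; 0.00019 and 0.00053), and PGM3 did not pass (-0.02). PGM2L1 was at 0.26 with the GC and length correction, still called. SLC16A7, a lactate transporter gene, rose (log2 fold change 0.39; limma adjusted p = 0.011) and lost its call with that correction (0.19; 0.0997). PGAM4 and RPEL1, both near-identical copies of members, fell by 0.20 and 0.33 on the log2 scale. PGAM4 lost its call with the GC and length correction (log2 fold change -0.02; limma adjusted p = 0.675). The reads of both cannot be kept apart from those of PGAM1 and RPE with certainty.

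In a list of genes that respond to glucose or act on its uptake, TXNIP and ARRDC4 fell further than any member, while the list's median was -0.18. TXNIP, an arrestin that limits glucose uptake, went from 165.5 ± 0.6 to 55.7 ± 2.4 RPM (log2 fold change -1.57), and its relative ARRDC4 from 61.3 ± 0.5 to 16.5 ± 1.8 (-1.90; limma adjusted p = 5.5e-08). MLXIP, the glucose-sensing factor MondoA that is known to drive both, fell as well (log2 fold change -0.70; limma adjusted p = 9.2e-07), and RRAD, a small GTPase gene, rose (0.69; 0.0055). Of the 13 genes tested in this list of 14, 8 fell and 2 rose, beside 23.5% lower and 17.5% higher over all genes tested. Among hypoxia factors and their targets outside glycolysis, of 22 tested 7 rose and 3 fell, with a median log2 fold change of 0.07. That is 10 of 22 called, near the 41.0% of all genes tested. HIF1A measured 442 ± 8 and 416 ± 12 RPM and did not pass (limma adjusted p = 0.106), but passed with the GC and length correction (log2 fold change -0.19; adjusted p = 0.00028). LOX, KDM3A and MXI1 rose (log2 fold changes 0.76, 0.63 and 0.52), and CA12 fell (-0.72). MYC, a factor known to activate many glycolytic genes, went from 39.3 ± 1.3 to 26.9 ± 1.3 RPM (log2 fold change -0.55; limma adjusted p = 3.3e-05). Among 5 tested genes of MYC and its partners, 2 fell and 1 rose, beside 41.0% called over all genes tested. MXD1 was at -0.50 and MAX at 0.18. The MAX call was lost without control replicate 3 or knockdown replicate 2. All these counts come from the same 6 libraries as those of the members.

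**Figure D4:**
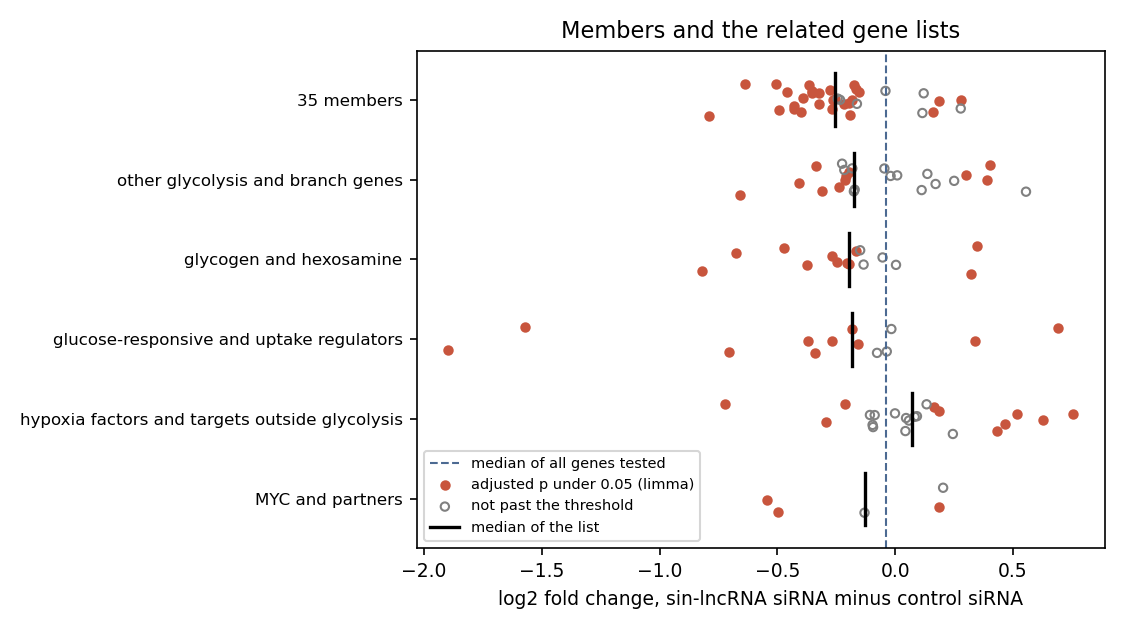
Log2 fold change (x axis, sin-lncRNA siRNA minus control siRNA) of each tested gene in 6 sets; filled points passed the threshold, open points did not, black bars are list medians and the dashed line is the median of all genes tested (-0.04). The members' bar lies at -0.25 and that of hypoxia genes at 0.07; vertical scatter within a row carries no value.

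The spans of 21 of the 35 members overlap another gene in the table. In GENCODE 29, SLC2A12 and RPE share over 20% of their exon bases with a gene on the opposite strand (38.9% and 23.8%), and since no strand setting is given their reads are uncertain. On the same strand, ALDOA shares 42.3% with AC093512.2 and LDHB 33.4% with AC010197.2. ALDOA overlaps no gene in the deposited table. LDHB overlaps 1, so its reads may be uncertain under any strand setting.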

How the data were processed

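PolyA RNA of 6 libraries (3 per group) was read as single 50 bp reads. The authors deposited log2 values per gene, which the values show to be log2 of reads plus 0.5 per 1000000 of an effective library size; undoing this gave whole reads for 100% of values (within 0.001). Bowtie2, featureCounts and hg19 are named, per the submitters' processing notes; versions, strand setting, annotation release and normalization tool are not given in the sources used here.

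The deposited log2 values of 19048 genes with a mean of at least 10 normalized reads were fitted with limma 3.58.1 (R 4.3.3; lmFit, eBayes with intensity trend, group as sole term) and adjusted by Benjamini-Hochberg at 0.05. The fit was run on simulated data in which far fewer genes changed than were called here. That run checked the procedure and not the calls reported here. Isoenzyme ratios were tested with SciPy 1.17.1. Lengths and GC content came from GENCODE 29 by gene ID, promoters from RefSeq (GRCh38.p14); no coordinates were converted. C12orf5 and RP11-332O19.5 were matched to TIGAR and RPEL1 by gene ID, and sin-lncRNA by its RefSeq synonym.

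Members and lists were chosen with earlier results of these data known. Named genes were all members, with every library's value for called ones that moved by 0.5 or more in log2 and for examples of each step, and up to 4 of the largest called changes per other list, apart from a gene not reported here. PGM1, PGM3, PGAM4, RPEL1 and HIF1A were named after their values were seen. The 19 other fits changed the offset, filter, scaling, variance model, block, depth, GC and length, pseudogene reads or left out a library. Each library's count of 0 allows up to 3 reads, 0.0596 to 0.134 RPM, for counting error only.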

Additional observations from a re-analysis of the deposited data

How the results depend on the processing

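Of the 28 called members, 21 kept call and sign in all 19 other fits, 7 lost the call in at least 1, and 5 of the uncalled members gained one. With a library left out, 23 to 28 members were called, 21 to 25 lower and 2 to 5 higher, with a median log2 fold change from -0.28 to -0.23; the lowest count was without control replicate 3, and eBayes without trend also gave 23. Without knockdown replicate 1, 5 were higher, as were 5 with the GC and length correction (median -0.23), a change whose cause was not tested. Quantile normalization gave a median of -0.22. Stricter thresholds cut the counts by construction: an adjusted p under 0.01 left 22 members, 21 lower and 1 higher, and an adjusted p under 0.05 with a shift of 0.5 or more in log2 left 3, all 3 lower and 0 higher, and 12 of the 45 called genes of the other lists. The other lists had 37 to 48 called genes with a library left out. PGLS, not called, reversed to 0.043 after the GC and length correction. Non-overlapping isoenzyme pairs numbered 5 to 6 with a library left out. With a library left out, PFKM over PFKL ran from -0.099 to 0.16 and SLC16A3 over SLC16A1 from -0.11 to 0.14 (log2 difference).

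Replicate numbers are shared between the groups, and whether they pair the libraries is not known. The correlation of deviations between same-numbered libraries was -0.15, -0.18 and 0.07, and replicate 3 alone matched its own number best. With 3 libraries per group, these correlations cannot decide whether the libraries were paired. A fit with a replicate block called 25 members (23 lower, 2 higher), and SLC2A3, PFKL and RPE lost their calls. Thinned to the smallest total, 27 members were called. No scaling moved the median of all genes by over 0.1 (log2). Depth was highest for PKM, with at least 52467 reads per library, and lowest for SLC2A12, with 78 to 156. The SE of the SLC2A12 log2 fold change was 0.15. Whether a change as small as that of most members could be detected there was not tested.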

Other observations

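Genes of glycogen, galactose and hexosamine metabolism, which branch from the first sugar phosphates of glycolysis, were counted from a list of 16. Of 15 tested, 9 were lower and 2 higher in the knockdown (limma, Benjamini-Hochberg over all genes tested, of which 23.5% were lower and 17.5% higher), with a median log2 fold change of -0.20. GALK1, the galactose kinase gene, went from 17.6 ± 3.6 to 9.85 ± 0.95 RPM (log2 fold change -0.82; limma adjusted p = 0.00065; SD, n = 3). The glycogen phosphorylases PYGB and PYGL, which release glucose from glycogen, fell by 0.47 and 0.38 on the log2 scale. The 2 genes that rose encode the entry enzymes of hexosamine synthesis and were named after their values were seen. GFPT1 went from 201.3 ± 2.2 to 256.4 ± 1.4 RPM (log2 fold change 0.35; limma adjusted p = 3.7e-05) and GFPT2 from 171.5 ± 3.2 to 214.1 ± 2.7 (0.32; 9.1e-05). GFPT1 was at 0.21 with the GC and length correction and kept its call.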
